A study of Mus musculus with 9 samples.

Results

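The nuclear-encoded subunits of oxidative phosphorylation were described in mouse kidney. They were taken as every protein-coding gene whose symbol starts with Ndufa, Ndufb, Ndufc, Ndufs or Ndufv and a digit, with Uqcr, with Cox4, Cox5, Cox6, Cox7 or Cox8, or with Atp5, together with Cyc1 and Sdha, Sdhb, Sdhc and Sdhd. This rule found 86 of the 54532 genes in the deposited table: 35 of complex I, 4 of complex II, 9 of complex III, 20 of complex IV and 18 of complex V. Ndufa4 and its paralog Ndufa4l2 were counted with complex IV, where the Ndufa4 protein is known to sit. Of these genes, 3 are not subunits by their known roles: Ndufa4l2, Cox7a2l (a supercomplex assembly factor) and Atp5s. The symbol Atp5o belonged to 2 genes, and the second (ENSMUSG00000116933), which overlaps the first, was at 0 in all 9 libraries.

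Kidneys came from male c57BL/6j mice, 4 months old, in 3 groups of 3 samples. Ground controls (GC1 to GC3) were not unloaded and had no treatment. Hindlimb unloaded mice (HU1 to HU3), whose hind legs bear no weight, received the vehicle. The third group (PBA1 to PBA3) was unloaded and received 4-PBA (4-phenylbutyrate, a chemical chaperone) by intraperitoneal injection at 100 mg/kg per day. Because the ground controls are labelled as untreated, unloading and vehicle injection cannot be told apart. The length of unloading is not stated in the labels. The samples of a group are called replicates with no statement that each came from a separate mouse, so p-values measure only the spread between these samples, which may be technical. The series asked whether stress of the endoplasmic reticulum links unloading to kidney damage and whether 4-PBA alters this; the respiratory chain was measured as part of the transcriptome.

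Oxidative phosphorylation takes place in the inner mitochondrial membrane. Complexes I and II pass electrons from NADH and succinate to ubiquinone, complex III passes them on to cytochrome c, complex IV reduces oxygen, and complex V (ATP synthase) uses the resulting proton gradient to make ATP. Most subunits are encoded in the nucleus and imported, while a small set is encoded by the mitochondrial genome, so the complexes need the products of both genomes. In the kidney, the proximal tubule and thick ascending limb hold many mitochondria to power solute transport.

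Promoters of these genes are known for sites of the factors NRF1, of the ETS family (including GABP) and YY1. RefSeq promoter windows (build GRCm38.p6), running from 250 bases before to 50 after each start, were matched for 68 of the genes. The letters GCGCA, any base and GCGC in a row, an NRF1-type site on either strand, were in 17 of the 68 (25%), against 7.17% of 17492 coding genes. The letters CCGGAAG, an ETS-type site on either strand, were in 16 (23.5%), against 12.9%. The YY1-type letters AAGATGGC, on either strand, were in 10 (14.7%), against 3.57%. Both NRF1-type and ETS-type letters were in 4 (5.88%, namely Cox6a1, Sdhd, Atp5h and Atp5k), against 1.56%. A match is a description of the letters and not a bound site. Below, capitals mark the NRF1-type and ETS-type letters on either strand, and each sequence reads along the strand of its gene, with the start after base 250. Cox6a1 is shown as the gene with the highest level in ground controls. Promoters were to be chosen from 31 genes, those past the threshold below and the isoform sets. Of these, Ndufa2, Ndufb9, Cox4i1, Cox4i2, Cox6a2, Cox6c, Cox8c and Ndufa4l2 had no matched window and were not searched. Cox6a1 is the only one of the rest with both kinds of letters. Sdhb and Sdhd are shown because these subunits of 1 complex differed in direction below, and Atp5o because it is the complex V gene that fell; these 3 were chosen after their values were seen.
Cox6a1, chr5:115348909-115349208, minus strand: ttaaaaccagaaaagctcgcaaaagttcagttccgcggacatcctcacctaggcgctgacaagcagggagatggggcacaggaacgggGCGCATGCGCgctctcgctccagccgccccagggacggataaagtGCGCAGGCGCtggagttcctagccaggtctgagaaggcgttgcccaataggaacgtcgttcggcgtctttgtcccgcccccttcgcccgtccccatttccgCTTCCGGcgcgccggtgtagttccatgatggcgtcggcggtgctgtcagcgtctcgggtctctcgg
Sdhb, chr4:140961021-140961320, plus strand: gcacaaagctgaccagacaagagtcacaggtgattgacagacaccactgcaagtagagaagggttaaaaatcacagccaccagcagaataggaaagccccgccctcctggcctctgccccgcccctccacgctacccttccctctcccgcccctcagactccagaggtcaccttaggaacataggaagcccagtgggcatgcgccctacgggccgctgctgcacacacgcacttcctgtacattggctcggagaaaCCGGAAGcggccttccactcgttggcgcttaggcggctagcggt
Sdhd, chr9:50603800-50604099, minus strand: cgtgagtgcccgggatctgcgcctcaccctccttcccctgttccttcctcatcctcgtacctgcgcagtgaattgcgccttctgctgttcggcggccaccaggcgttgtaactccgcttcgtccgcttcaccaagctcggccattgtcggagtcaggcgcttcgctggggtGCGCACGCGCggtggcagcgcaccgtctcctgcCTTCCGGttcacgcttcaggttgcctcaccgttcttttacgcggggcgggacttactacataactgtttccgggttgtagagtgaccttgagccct
Atp5o, chr16:91931581-91931880, minus strand: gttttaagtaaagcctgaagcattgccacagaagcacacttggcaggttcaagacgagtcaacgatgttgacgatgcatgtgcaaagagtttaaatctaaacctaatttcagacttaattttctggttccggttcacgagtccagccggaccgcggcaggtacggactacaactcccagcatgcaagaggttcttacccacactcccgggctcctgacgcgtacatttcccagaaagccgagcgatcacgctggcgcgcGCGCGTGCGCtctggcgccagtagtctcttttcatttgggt
The Cox6a1 window holds 2 NRF1-type sites and 1 ETS-type site, that of Sdhd 1 of each, that of Sdhb 1 ETS-type site and that of Atp5o 1 NRF1-type site. Sdhb and Sdhd thus share the ETS-type letters, and of both only Sdhd holds the NRF1-type letters in this window.

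Levels are FPKM, reads per length of the gene and per constant of the library, so they can be compared between genes. Recovered reads numbered 7595631 to 15141784 per library. The library constant did not follow these totals. At 8159090 reads in HU1 and 7595631 in HU2, 1 read was worth 167 and 321 in FPKM times gene length. Results scaled by total reads instead are given near the end. Reads of the mitochondrial genome took 14.8% to 49.7% of a ground control library, 63.7% to 79.3% of an unloaded one, and 15.2%, 13.7% and 67.1% of PBA1, PBA2 and PBA3. PBA3 thus stood apart from the other 4-PBA libraries and with the unloaded ones, and GC3 had the highest share among controls. Reads of the subunit genes ranged from 36892 in HU2 to 517915 in PBA2. Outside the mitochondrial genome, pseudogenes took 3.73% to 7.54% of reads in the unloaded libraries, 4.83% in PBA3 and 0.955% to 1.76% in the other 5. The summed FPKM of 12 proximal tubule markers was 2428 to 2850 in ground controls, 389 to 626 in unloaded kidneys, and 2521, 2603 and 737 in PBA1, PBA2 and PBA3. None of the 12 was at 0 in all libraries. In the unloaded group 8 of them fell past the threshold given below, where 4.9% of all genes tested fell. The sum of 5 thick limb markers was 249 to 462 in controls and 135 to 205 after unloading, with 0 past the threshold. Sums of distal convoluted tubule (51.5 to 67.5 against 8.59 to 25.3), intercalated cell and podocyte markers (23.6 to 43.6 against 5.59 to 9.49) were also lower without overlap. Those of principal cells, endothelium and macrophages overlapped. In whole tissue, fewer cells of a type and less RNA per cell cannot be told apart.

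In ground controls the subunit mRNAs were abundant and uneven within each complex. Mean FPKM in complex I ran from 8.07 for Ndufb2 to 356 for Ndufa1, around a median of 94.6. Complex II ran from 47.5 for Sdhc to 174 for Sdhb, and complex III from 49.7 for Uqcrc2 to 557 for Uqcr10, with a median of 203. Complex IV held the widest range, from 0.823 for the low isoform Cox4i2 to 902 for Cox6a1, with a median of 132. Complex V ran from 5.38 for Atp5s to 346 for Atp5a1, with a median of 186. Setting mitochondrial reads aside, all subunit genes together took 3.25% to 3.91% of a ground control library, 2.35% to 2.99% of an unloaded one and 3.24%, 4.04% and 2.49% of PBA1, PBA2 and PBA3.

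The first comparison asks what unloading, with its vehicle, did to these mRNAs. Of the 83 subunit genes that passed the filter (3 or more libraries at FPKM of 1 or above), 9 fell and 0 rose in limma at an adjusted p under 0.05, where 4.9% of all 12642 genes tested fell and 5.32% rose. The genes that fell were 6 of complex I (Ndufa1, Ndufa2, Ndufa9, Ndufa11, Ndufb9 and Ndufv3), Sdhb of complex II, Uqcr10 of complex III and Atp5o of complex V. No complex IV gene passed. At an unadjusted p under 0.05, 40 subunit genes were lower (15.1% of all genes) and 4 higher (14.7%). The fitted difference, unloaded minus ground control on the log2(FPKM + 1) scale, was below 0 for 76 of the 83 genes. Its median was -0.82, beside -0.03 over all genes tested and -0.07 over protein-coding genes.

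**Figure D1:**
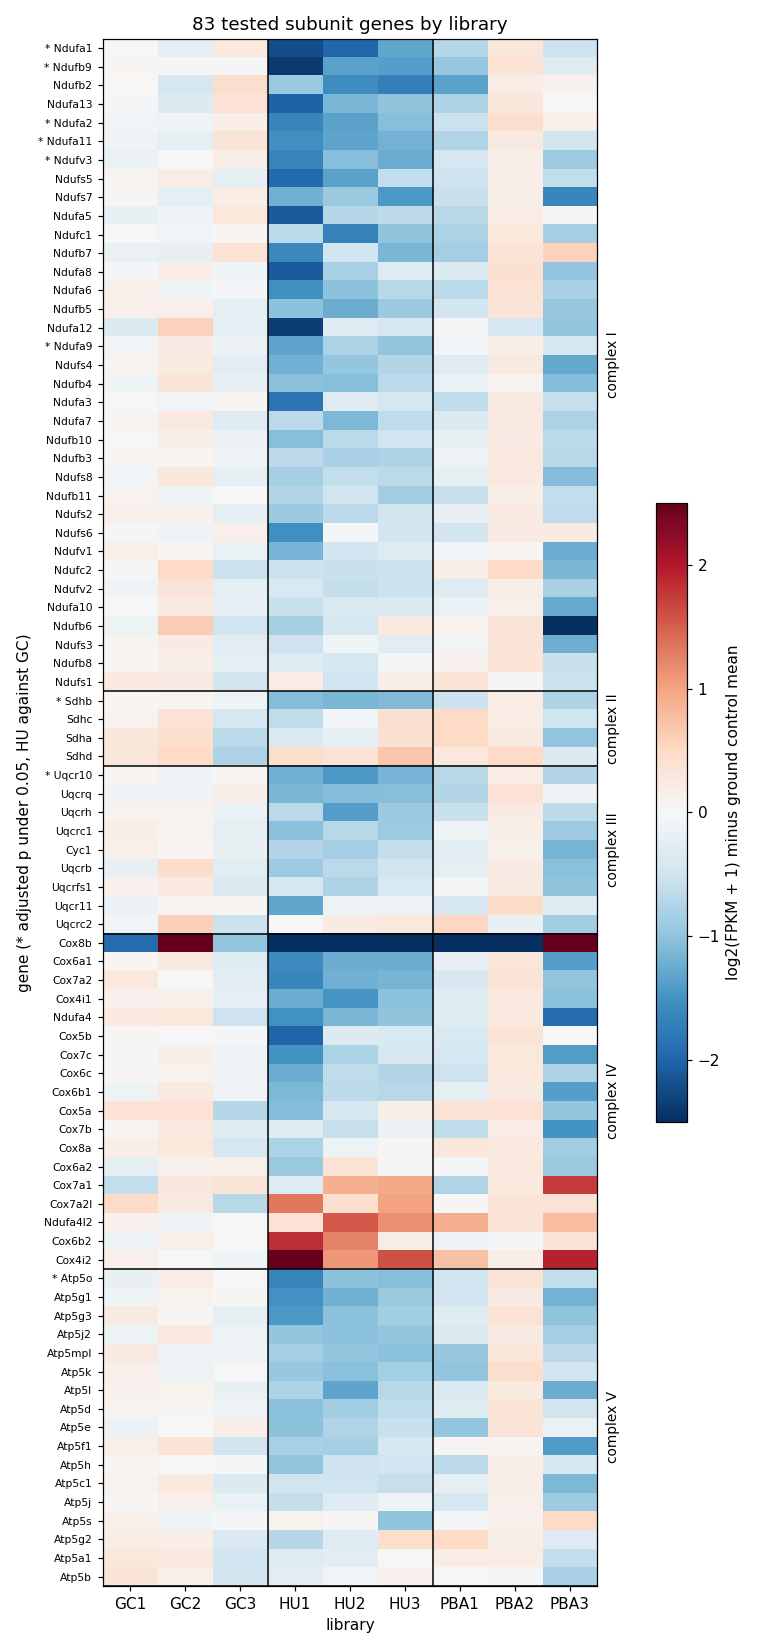
Level of each of the 83 tested subunit genes in each of the 9 libraries, as log2(FPKM + 1) minus the mean of the ground controls, grouped by complex and ordered by the difference between unloaded and ground control; blue is lower, red higher, colours are capped at the ends of the scale, and a star marks an adjusted p under 0.05. Most rows are blue in the 3 unloaded libraries and in PBA3, pale in PBA1 and faintly red in PBA2, with a red block of complex IV isoforms.

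The direction was shared by most genes in every unloaded library. Relative to the ground control mean, the median subunit gene lay at -0.99 (log2) in HU1, -0.69 in HU2 and -0.61 in HU3, while the ground controls lay at 0.05, 0.12 and -0.16. In HU1, 70 of 83 genes were below the lowest ground control (43.1% of all genes tested), in HU2 62 (36.9%) and in HU3 60 (36.8%). In all, 57 genes had every unloaded library below every control, against 19.4% of all genes, and 3 (Cox4i2, Cox6b2 and Ndufa4l2) had every unloaded library above, against 18.3%. The genes that were lower without overlap numbered 29 of 35 in complex I, 1 of 4 in complex II, 7 of 9 in complex III, 9 of 18 in complex IV and 11 of 17 in complex V.

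**Figure D2:**
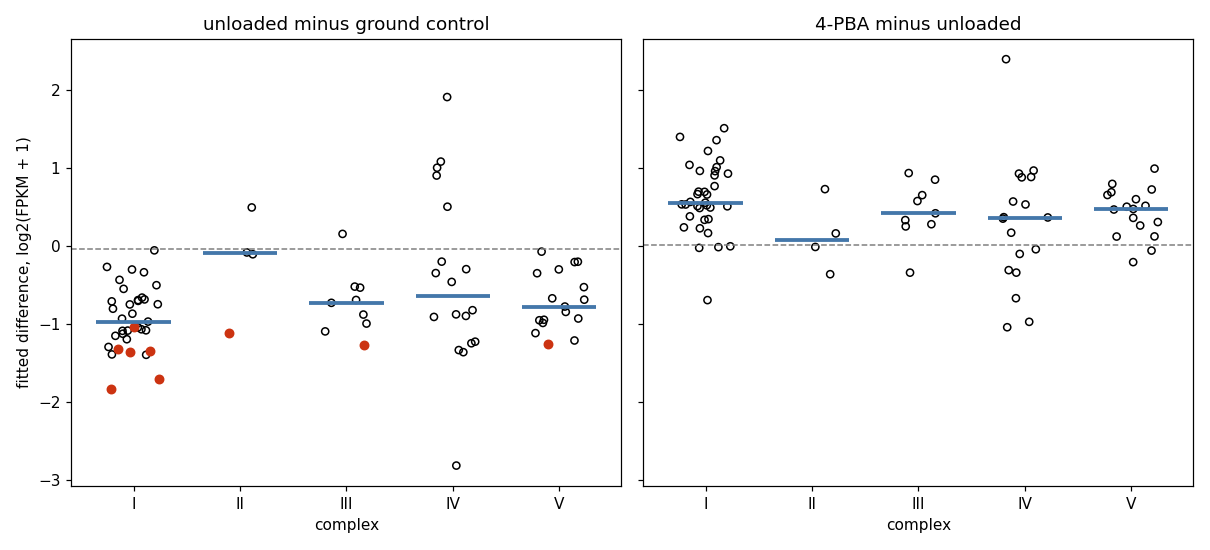
Fitted log2(FPKM + 1) difference of each tested subunit gene by complex, for unloaded minus ground control (left) and 4-PBA minus unloaded (right); red points passed an adjusted p of 0.05, bars are medians and the dashed line is the median over all genes tested. On the left the medians are -0.97, -0.09, -0.73, -0.64 and -0.77 for complexes I to V, and complex IV spreads from -2.81 to 1.91; on the right no point passed.

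The count of genes past the threshold depended on single libraries, as it did over all genes. Without GC1, GC2 or GC3 no subunit gene passed in limma, while calls over all genes went from 1292 to 69, 230 and 126. Without HU1 only Ndufa4l2 passed, and it was higher (945 of all genes). Without HU2 4 passed (3 lower; 1033 of all genes), and without HU3 3 (2 lower; 669). Without PBA1 5 passed (874 of all genes), without PBA2 15 (1211) and without PBA3 29 (28 lower; 2360). The median of the subunit genes stayed between -0.89 and -0.65 when a control or unloaded library was left out. Leaving out a 4-PBA library cannot move this median. With the mitochondrial share of reads as a covariate the median was -0.39, with 52 of the 83 genes below 0. No subunit gene passed, while 99 of all genes did. Every unloaded library had a higher share (63.7% or more) than every control (49.7% or less). This fit therefore cannot tell the share apart from the group. The part that the mitochondrial share, the pseudogene share and the lower markers of proximal tubule and other kidney cells have in the difference was not tested.

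Ndufa1, a small membrane-arm subunit of complex I (ENSMUSG00000016427, chrX:37187588-37191163, mm10), had the lowest fitted difference among the genes that passed. Its FPKM was 353, 299 and 417 in GC1 to GC3, 75.1, 88.2 and 144 in HU1 to HU3, and 214, 429 and 246 in PBA1 to PBA3. All 3 unloaded libraries were below all 6 others. The mean fell from 356 ± 59.4 to 102 ± 36.3 (SD, n = 3), a difference of -1.83 ± 0.37 (log2, SE; limma adjusted p = 0.0213).

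Ndufb9, an accessory subunit at the outer end of the membrane arm (chr15:58933756-58939488), showed 159, 151 and 149 FPKM in the controls and 28.4, 59.5 and 57.9 after unloading. Its 4-PBA libraries were at 79.3, 195 and 122. Controls were nearly alike, and all 3 unloaded libraries lay below the other 6. The difference was -1.71 ± 0.40 (log2, SE; limma adjusted p = 0.0294). Ndufb9 overlaps the gene model Gm49356 on the same strand, so its reads could be split between them.

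Ndufa2, an accessory subunit of the matrix arm (chr18:36742332-36744557), was at 335, 324 and 393 FPKM in controls and at 110.4, 137 and 165 in unloaded kidneys. With 4-PBA it was at 239.7, 472 and 380.5, so that every unloaded library was below every other one. The difference between unloaded and control was -1.36 ± 0.34 (log2, SE; limma adjusted p = 0.0356). Ndufa11, an accessory subunit of the membrane arm (chr17:56717767-56722141), was at 125, 114 and 168 in controls, 45.9, 53.3 and 58.2 in unloaded kidneys and 78.8, 157 and 97.7 with 4-PBA. It fell by 1.34 ± 0.32 on the log2 scale (SE; limma adjusted p = 0.0311), again with no overlap.

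Ndufv3 belongs to the module that oxidises NADH (chr17:31520115-31531326). It was at 68.2, 76.2 and 86.5 FPKM in controls, 23.5, 35.9 and 32.0 in unloaded kidneys and 56.7, 85.4 and 40.5 with 4-PBA, and fell by 1.32 ± 0.32 on the log2 scale (SE; limma adjusted p = 0.0330). Ndufa9, an accessory subunit where the matrix and membrane arms meet (chr6:126821721-126849136), was at 61.4, 73.8 and 58.0 in controls, 24.9, 36.9 and 31.7 in unloaded kidneys and 60.7, 70.8 and 47.0 with 4-PBA. Its difference was the smallest of the 9, -1.03 ± 0.27 (log2, SE; limma adjusted p = 0.0412). In both genes the unloaded range lay below both other groups.

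Sdhb, the iron-sulfur subunit of succinate dehydrogenase (ENSMUSG00000009863, chr4:140961203-140979193), was at 179, 183 and 161 FPKM in controls and at 81.5, 78.2 and 80.9 after unloading, the tightest unloaded group of the 9 genes. With 4-PBA it was at 120.5, 197 and 101. The mean fell from 174 ± 12.1 to 80.2 ± 1.74 (SD, n = 3), a difference of -1.11 ± 0.30 (log2, SE; limma adjusted p = 0.0466).

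Uqcr10, a small complex III subunit beside cytochrome c1 (chr11:4701973-4704342), was the most abundant complex III mRNA. It measured 572, 525 and 575 FPKM in controls, 241, 205 and 249 after unloading and 345, 633 and 334 with 4-PBA. Its difference was -1.27 ± 0.33 (log2, SE; limma adjusted p = 0.0425). Atp5o encodes the protein that ties the catalytic head of ATP synthase to its side stalk (ENSMUSG00000022956, chr16:91925214-91931687). It was at 81.7, 104 and 92.5 in controls, 28.2, 45.0 and 43.9 after unloading and 65.0, 117 and 60.5 with 4-PBA, and fell by 1.25 ± 0.33 on the log2 scale (SE; limma adjusted p = 0.0418). Both genes had all unloaded libraries below the rest. A near-identical copy elsewhere held 2.97% of the reads of Atp5o and its copy in controls and 6.42% after unloading.

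**Figure D3:**
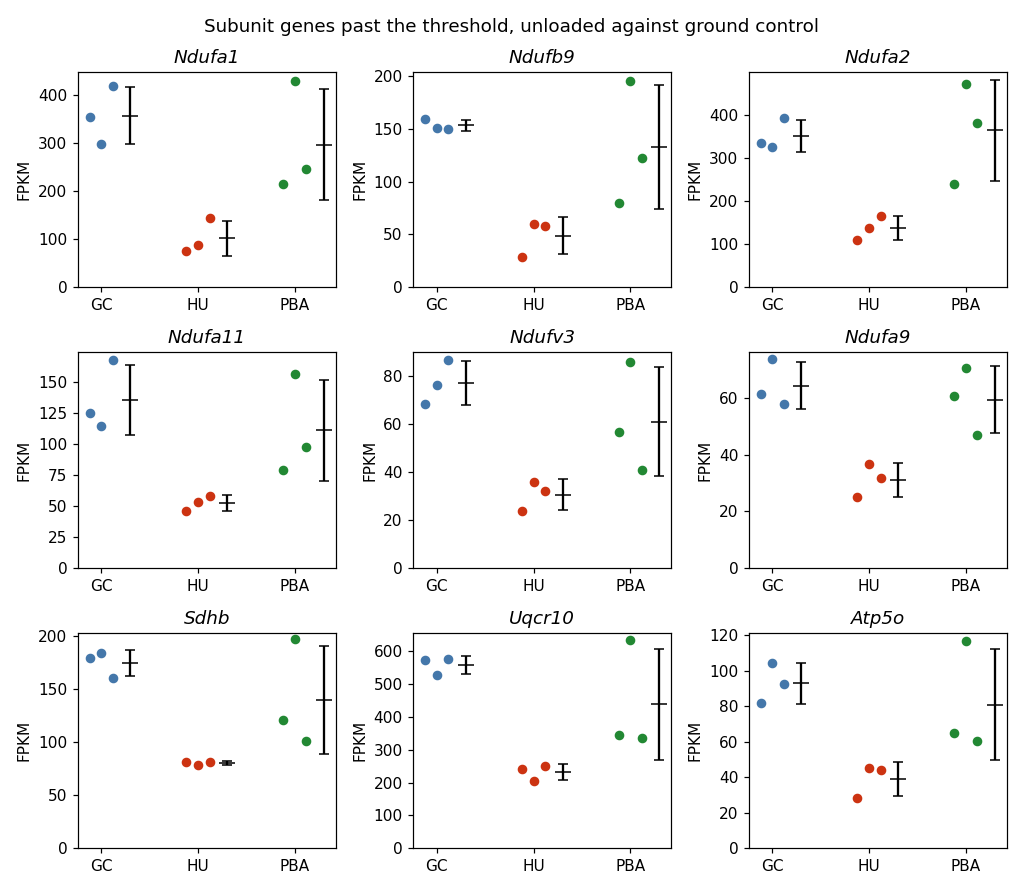
FPKM of the 9 subunit genes past the threshold in unloaded against ground control, with 1 point per library and the mean with SD (n = 3) beside each group. In each panel the 3 unloaded (HU) points lie below all control (GC) and 4-PBA (PBA) points, and PBA2 is the highest 4-PBA point.

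Next to these 9, 19 genes had an adjusted p between 0.05 and 0.10, of which 16 were lower. Among them were the main forms of 3 complex IV subunits. Cox6a1, the most abundant, was at 925, 1061 and 721 FPKM in controls and 293, 376 and 378 after unloading (-1.36 ± 0.44 log2, SE; limma adjusted p = 0.0799). Cox4i1, a regulatory subunit, was at 589, 591 and 463 in controls and 231, 196 and 266 after unloading (-1.24 ± 0.37; adjusted p = 0.0630). Cox7a2, the form made in most tissues, was at 364, 303 and 254 in controls and 97.2, 132 and 134 after unloading (-1.33 ± 0.37; adjusted p = 0.0519). None of the 3 overlapped between the groups, and none passed.

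Other genes of complex I that missed the threshold had similar patterns of levels; those named here were chosen after their values were seen. Ndufa13 was at 193, 156 and 254 FPKM in controls and 47.7, 88.9 and 97.5 after unloading. Ndufs5 was at 125, 137 and 101 in controls and 30.6, 47.1 and 78.2 after unloading. Neither gene overlapped between the groups. In complex III, Uqcrq was at 230, 230 and 273 against 111, 114 and 117, and Uqcrh, the hinge protein, at 303, 305 and 254 against 179, 110 and 151. The Rieske iron-sulfur protein Uqcrfs1 lay closer, at 236, 257 and 170 against 159, 127 and 168. The heme-bearing Cyc1 was at 165, 156 and 133 against 89.96, 83.4 and 99.2. All 4 of these complex III genes were lower without overlap, and none passed.

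Several genes for large or catalytic subunits had fitted differences near 0. Ndufs1, the largest complex I subunit and carrier of iron-sulfur clusters, was at 12.1, 11.8 and 7.06 FPKM in controls and 11.6, 6.83 and 11.3 after unloading, so the groups overlapped (-0.05 log2; limma adjusted p = 0.933). Over the 7 core subunits of complex I, those shared with bacteria, the median difference was -0.66 with 0 past the threshold, and over the other 28 it was -1.05 with 6 past it. Within complex V, the 5 genes of the catalytic head and its central stalk (alpha to epsilon) had a median of -0.52 and 0 past the threshold, and the other 12 a median of -0.94 and 1. The stalk genes Atp5c1, Atp5d and Atp5e were at -0.52, -0.84 and -0.77. Median gene length was 2178 bases for the core of complex I and 1234 for its others, and 1928 and 2110 in complex V. Of all genes tested 4.9% fell, so 0 of 7, 0 of 5 or 1 of 12 does not set a part apart from all genes. These splits rest on known roles and are given without a test.

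Atp5a1 and Atp5b, the alpha and beta subunits that form the catalytic head, overlapped between the groups. Atp5a1 was at 402, 397 and 239 FPKM in controls and 269, 279 and 336 after unloading (-0.20 log2; limma adjusted p = 0.743). Atp5b was at 366, 322 and 214 against 245, 281 and 317 (-0.07; adjusted p = 0.917). In both, GC3 was the lowest control and HU3 the highest unloaded library. The ratio of Atp5b to Atp5o, which no scaling of the library can move, was 4.48, 3.09 and 2.32 in controls, 8.69, 6.25 and 7.23 after unloading and 4.56, 2.47 and 2.77 with 4-PBA. Every unloaded ratio exceeded all 6 others. The core protein Uqcrc2 of complex III likewise overlapped, at 44.8, 72.0 and 32.2 in controls and 47.2, 54.5 and 56.7 after unloading (0.16 log2; adjusted p = 0.823), while its ratio to Uqcr10 was 0.0561 to 0.137 in controls and 0.196 to 0.266 after unloading. These ratios were chosen after the values were seen and have no test.

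Complex II was split between its genes. All 4 are nuclear: Sdha (the flavoprotein) and Sdhb form the catalytic part, and Sdhc and Sdhd anchor it in the membrane. Sdha was at 68.2, 73.7 and 34.4 FPKM in controls, 42.9, 46.8 and 72.8 after unloading and 79.1, 65.7 and 27.5 with 4-PBA (unloaded minus control -0.08 log2; limma adjusted p = 0.927). Sdhc was at 49.3, 59.2 and 34.0 in controls, 29.4, 44.2 and 61.3 after unloading and 66.2, 52.8 and 32.3 with 4-PBA (-0.10; adjusted p = 0.882). Both overlapped in all groups, and their small negative differences turned positive under several alternatives.

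Sdhd, in contrast to Sdhb, was not lower after unloading (ENSMUSG00000000171, chr9:50596357-50603812). It was at 109, 127 and 51.6 FPKM in controls, 122, 114 and 145 after unloading and 107, 126 and 70.6 with 4-PBA, with overlapping groups (0.50 ± 0.38 log2, SE; limma adjusted p = 0.409). Scaled by total reads, its difference was -0.56. The ratio of Sdhd to Sdhb was 0.606, 0.691 and 0.322 in controls, 1.496, 1.46 and 1.80 in unloaded kidneys and 0.889, 0.641 and 0.698 with 4-PBA. The 3 unloaded kidneys thus held more Sdhd than Sdhb mRNA per length, and the other 6 held less. PBA3, which resembled the unloaded libraries in mitochondrial share, lay just above the highest control in this ratio.

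Complex IV was the complex whose genes spread furthest, and its upper end was made of isoforms and paralogs with low levels in control kidney. Cox4i2, the form of Cox4 known from lung and from cells short of oxygen, was at 0.978, 0.795 and 0.695 FPKM in controls, 14.2, 2.85 and 4.49 after unloading and 2.03, 1.05 and 5.90 with 4-PBA. These rested on 6 to 15 reads in controls and 7 to 67 after unloading. All unloaded libraries were above all controls, but the difference of 1.91 ± 0.55 (log2, SE) missed the threshold (limma adjusted p = 0.0551). As a share of summed FPKM of Cox4i1 and Cox4i2, Cox4i2 made up 0.134% to 0.166% in controls, 5.81%, 1.44% and 1.66% after unloading, and 0.457%, 0.162% and 2.17% with 4-PBA.

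Ndufa4l2, a paralog of Ndufa4 known to be induced by low oxygen, was at 3.33, 2.71 and 3.00 FPKM in controls, 4.13, 10.6 and 7.81 after unloading and 6.51, 4.02 and 5.86 with 4-PBA. Unloaded libraries were above controls without overlap (1.01 ± 0.32 log2, SE; limma adjusted p = 0.0745). Ndufa4 itself was at 339, 344 and 199.9 in controls and 99.2, 129 and 141 after unloading (-1.22; adjusted p = 0.149). The share of Ndufa4l2 in the pair was 0.782% to 1.48% in controls, 4.00% to 7.59% after unloading and 1.17% to 7.17% with 4-PBA. Controls and unloaded kidneys were apart in this share, and PBA3 held the highest of the 4-PBA values.

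Cox6b2, the testis form of Cox6b, was at 2.18, 2.83 and 2.47 FPKM in controls, 11.5, 7.25 and 2.93 after unloading and 2.20, 2.36 and 3.33 with 4-PBA (unloaded minus control 1.09 ± 0.39 log2, SE; limma adjusted p = 0.0979). Its partner Cox6b1 was at 389, 495 and 402 in controls and 195, 271 and 264 after unloading (-0.82; adjusted p = 0.221). HU3 was barely above the highest control for Cox6b2, at 22 reads. Cox7a2l was at 95.3, 80.0 and 42.0 in controls, 173, 90.2 and 139 after unloading and 69.8, 86.3 and 88.6 with 4-PBA; the first 2 groups overlapped (0.91; adjusted p = 0.138), and scaling by total reads turned the difference to -0.15. Cox7a1, the heart and muscle form, was at 11.05, 21.5 and 22.02 in controls, 13.8, 33.0 and 34.7 after unloading and 9.96, 20.7 and 60.6 with 4-PBA (0.51; adjusted p = 0.610). Its share of summed Cox7a1 and Cox7a2 was 2.95% to 7.98% in controls and 12.4% to 20.5% after unloading.

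**Figure D4:**
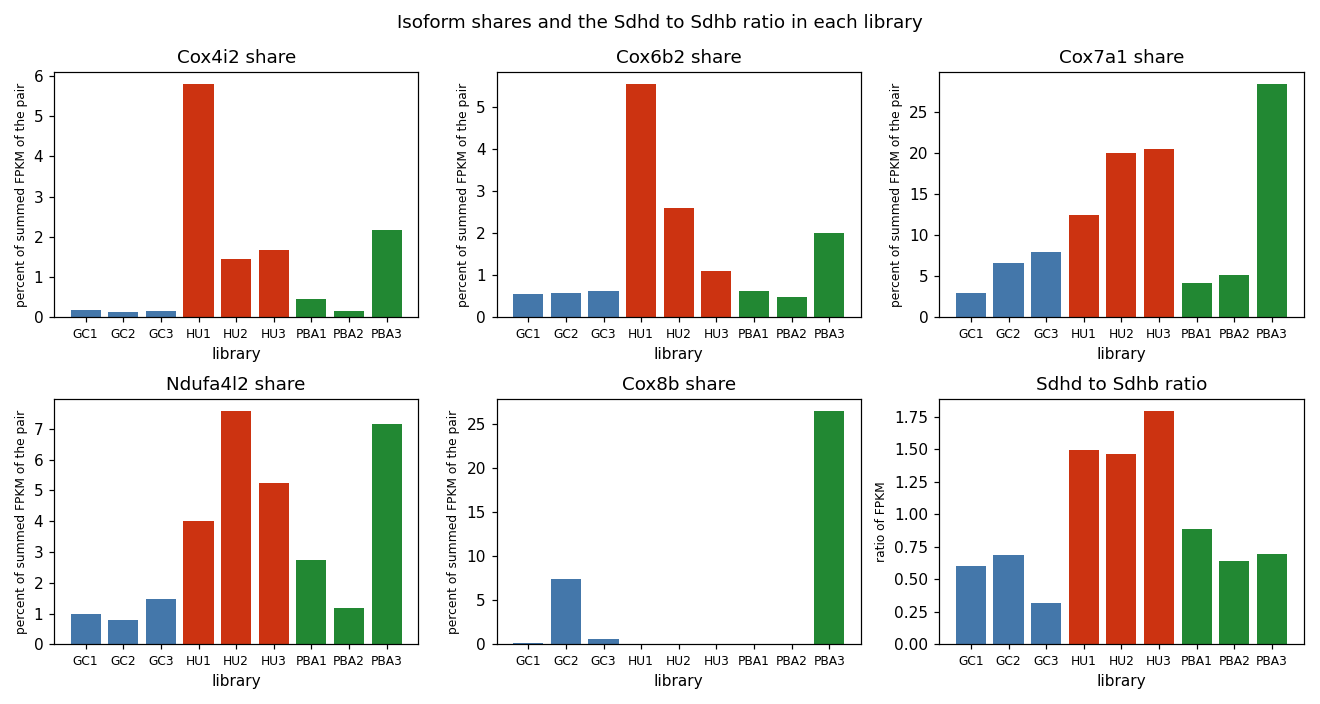
Share of the low isoform or paralog in the summed FPKM of its pair with the main form (5 panels, in percent) and the ratio of Sdhd to Sdhb FPKM, with 1 bar per library. The shares of Cox4i2, Cox6b2, Cox7a1 and Ndufa4l2 and the Sdhd to Sdhb ratio are higher in all 3 unloaded libraries than in all 3 ground controls, PBA3 is well above all ground controls in every share but at 0.698 in the ratio, next to the highest control at 0.691, and Cox8b is high only in GC2 and PBA3.

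Markers of fibroblasts and pericytes were also higher in the unloaded libraries and PBA3 than in the other libraries. The summed FPKM of 6 markers (none at 0 in all libraries) was 13.9 to 40.1 in ground controls, 101 to 218 after unloading, and 47.0, 11.6 and 194.5 in PBA1, PBA2 and PBA3. In unloaded kidneys 6 of 6 were higher without overlap (18.3% of all genes tested) and 1 passed the threshold (5.32% of all genes rose). Skeletal muscle markers summed to at most 12.6 FPKM in any library and heart markers to at most 5.01. Within the unloaded group the fibroblast and pericyte sum was lowest in HU1. There Cox4i2 (14.2 FPKM) and Cox6b2 (11.5) were the highest of the group, and Cox7a1 (13.8) and Ndufa4l2 (4.13) the lowest. The part of other cells in the isoform levels was not tested. Cox8a, the main form of its pair, was at 605, 647 and 399.7 FPKM in controls and 313, 494 and 549.9 after unloading (-0.29 log2; limma adjusted p = 0.679), and Cox6a2 rested on at most 20 reads in any library, which is too few to compare.

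Cox5a and Cox5b are further subunits of complex IV, and both were lower on average. Cox5a was at 58.9, 59.3 and 27.3 FPKM in controls and 21.04, 33.8 and 50.5 after unloading (-0.46 log2; limma adjusted p = 0.556). Cox5b was at 142, 137 and 136 against 34.1, 109 and 106 (-0.91; adjusted p = 0.200), with HU1 far below the other 2. Cox6c was at 128, 133 and 116 against 52.6, 80.2 and 74.8 (-0.87; adjusted p = 0.111), and Cox7b at 206, 235 and 160 against 161, 132 and 178 (-0.34; adjusted p = 0.613). Of the 4, Cox5b and Cox6c did not overlap between the groups.

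The c ring of ATP synthase is made from 3 genes with different leader peptides and the same mature protein. Atp5g3 was at 373, 324 and 269 FPKM in controls and 117, 156 and 174 after unloading (-1.11 log2; limma adjusted p = 0.0906). Atp5g1 was at 50.3, 57.3 and 54.9 against 18.3, 23.0 and 28.1 (-1.21; adjusted p = 0.0582), and Atp5g2 at 62.6, 62.1 and 42.7 against 33.1, 43.7 and 74.5 (-0.20; adjusted p = 0.743). The first 2 did not overlap between groups and the third did. Atp5g2 accordingly supplied 11.7% to 14.0% of the summed FPKM in controls and 19.7% to 27.0% after unloading, and Atp5g3 supplied 73.1% to 76.8% and 62.9% to 70.0%. Atp5g1 has a near-identical copy that held 19.6% of the reads of both in controls and 26.4% after unloading.

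Cox8b, the Cox8 form of heart, muscle and brown fat, had the most uneven levels. Its FPKM was 0.857, 52.0 and 2.54 in controls (6, 448 and 10 reads), 0 in all 3 unloaded libraries, and 0.111, 0.242 and 106 with 4-PBA (1, 2 and 237 reads). A count of 0 allows up to 3 reads, worth 1.40, 2.68 and 1.23 FPKM in HU1 to HU3, so GC1 was within that limit and only GC2 and PBA3 were far above it. Neither comparison passed (limma adjusted p = 0.293 for unloaded against control and 0.461 for 4-PBA against unloaded). The fitted values of Cox8b in the plots are no bound, since the unloaded group was at 0; with it set to 3 reads there, the median over subunit genes was again -0.82 and, for 4-PBA minus unloaded, 0.51.

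The libraries with Cox8b were those with fat markers. Ucp1, Cidea and Elovl3, which mark brown fat, summed to 33.7 FPKM in GC2 and 57.9 in PBA3, and to at most 4.70 in the other 7. The 5 general fat markers summed to 315 in GC2 and 338 in PBA3 and to at most 11.3 elsewhere. Ucp1, the uncoupling protein of brown fat, was at 15.7 in GC2 and 37.5 in PBA3, and Cfd, the fat-cell protease adipsin, at 273 and 304. The part of fat in other subunit genes was not tested. With GC2 and PBA3 both left out, 4 subunit genes fell in unloaded against control, against 9 with all libraries, and the median was -0.75. Calls over all genes were then 1285, against 1292 with all libraries.

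**Figure D5:**
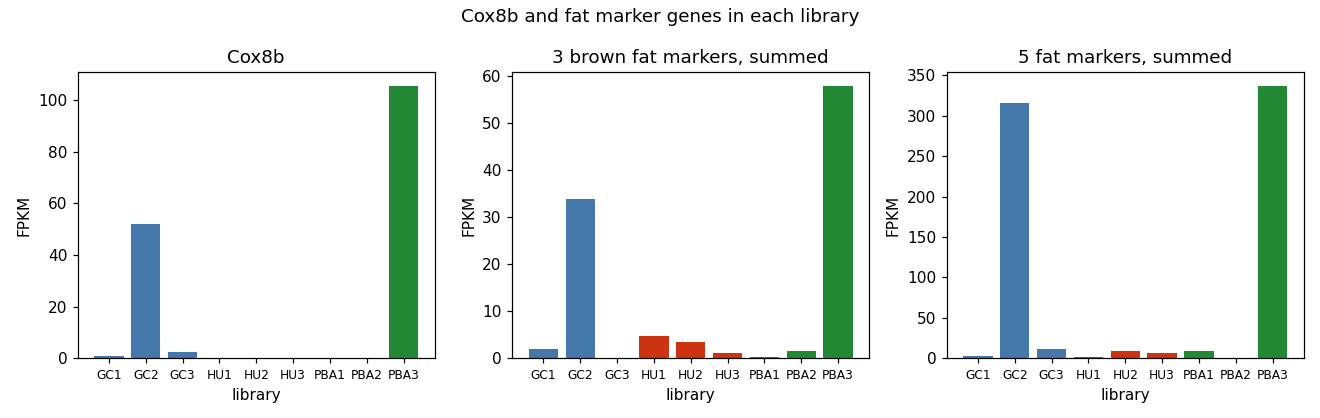
FPKM of Cox8b (left), of 3 brown fat markers summed (middle) and of 5 fat markers summed (right), with 1 bar per library. In all 3 panels GC2 and PBA3 stand far above the other 7 libraries.

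The second comparison asks how 4-PBA altered the mRNAs in unloaded kidneys. In limma, 0 of the 83 subunit genes passed, against 1.16% of all genes higher and 1.53% lower. At an unadjusted p under 0.05, 18 were higher and 1 lower, against 10.3% and 9.82% of all genes, and limma-voom on recovered reads called 2 (Ndufa1 and Ndufa2, both higher). The median difference, 4-PBA minus unloaded, was 0.51 (log2), beside 0.02 over all genes tested, and 67 genes were above 0. By complex the medians were 0.56, 0.08, 0.42, 0.36 and 0.48 for I to V. Without overlap, 17 genes were higher (10.1% of all genes) and 1, Cox7a2l, lower (10.2%). This comparison shares its unloaded libraries with the first, so opposite signs in both are not independent.

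The 9 genes that fell after unloading had fitted differences from 0.73 (Sdhb) to 1.51 (Ndufa1) for 4-PBA minus unloaded. For Ndufa1 the means were 102 ± 36.3 and 297 ± 116 FPKM (SD, n = 3; limma adjusted p = 0.0653), and for Ndufa2 138 ± 27.5 and 364 ± 117 (1.36 ± 0.34 log2, SE; limma adjusted p = 0.0651). Ndufb9 had the next largest difference, 1.40 ± 0.40 (adjusted p = 0.0974). In Cox4i2, the sign was the other way (-0.97; adjusted p = 0.354), with 4-PBA libraries overlapping the unloaded ones. The same held for Cox6b2 (-1.04; adjusted p = 0.178).

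The 4-PBA libraries were not alike. Relative to the ground control mean, the median subunit gene lay at -0.31 (log2) in PBA1, 0.23 in PBA2 and -0.78 in PBA3, so PBA3 lay in the unloaded range and PBA2 above all controls. In PBA2, 43 of 83 genes exceeded the highest control (22.4% of all genes tested), against 7 in PBA1 (27.7%) and 8 in PBA3 (36.4%). In PBA3, 67 were below the lowest control (37.9% of all genes), against 50 in PBA1 (25.1%) and 2 in PBA2 (18.7%). PBA3 was below both other 4-PBA libraries for 59 genes (44.2% of all genes) and above both for 8 (41.1%). At or below the highest unloaded library were 55 genes in PBA3 (73.4% of all genes), 27 in PBA1 (72.5%) and 14 in PBA2 (69.2%).

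Without PBA3, 8 subunit genes rose in limma at an adjusted p under 0.05: Ndufa1 (1.61 log2), Ndufa2, Ndufa9 and Ndufv3 of complex I, Cox4i1 (1.22), Cox6a1 (1.40) and Cox7a2 (1.29) of complex IV, and Atp5g1 of complex V. The median difference was then 0.76, and 1320 of all genes passed against 340 with PBA3. Without both GC3 and PBA3, 7 rose (1118 of all genes passed). Without HU3 instead, 1 subunit gene (Cox6b2, lower) passed (238 of all genes). PBA3 was also the 4-PBA library with the high mitochondrial share, the low proximal tubule markers and the fat markers given above, and with the mitochondrial share as a covariate the median was 0.091.

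Against ground controls, unloaded kidneys with 4-PBA showed 0 subunit genes past the threshold in limma, as did all genes (0%). At an unadjusted p under 0.05 there were also 0 subunit genes, against 0.704% of all genes higher and 0.601% lower, and limma-voom called 0. The median difference was -0.32 (log2), with 72 of 83 genes below 0, beside -0.00 over all genes. By complex the medians were -0.33, -0.01, -0.30, -0.29 and -0.31. Without overlap, 2 genes were higher, Cox4i2 and Ndufa4l2 (4.37% of all genes), and 0 lower (3.63%). Without PBA3 the median was -0.04. A p that misses the threshold does not show that the levels were equal.

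Related mitochondrial genes were taken from lists by known role. Of 51 assembly factors, which build the complexes, 46 were tested; 2 fell after unloading and 0 rose, where 4.9% of all genes fell, and the median was -0.11. So few calls do not set the list apart from all genes. Ndufaf2, a complex I factor, fell from 6.54, 6.52 and 8.10 FPKM in controls to 1.57, 1.40 and 2.77 (-1.49 log2; limma adjusted p = 0.0210). Sdhaf1, which helps place iron-sulfur clusters in Sdhb, fell from 10.1, 6.12 and 9.72 to 0, 3.61 and 1.84 (-2.01; adjusted p = 0.0487). Taco1, which aids translation of mitochondrial Cox1, was at 1.63, 3.14 and 1.98 against 7.75, 3.95 and 7.78 (1.18; adjusted p = 0.0715).

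Of 78 mitochondrial ribosomal proteins, which translate the mitochondrial mRNAs, 77 were tested, 6 fell and 0 rose after unloading (4.9% and 5.32% of all genes), with a median of -0.60. Mrps18b fell from 4.06, 3.22 and 3.15 FPKM to 0, 0.923 and 0.847 (-1.55 log2; limma adjusted p = 0.0191) and was at 4.37, 3.49 and 5.14 with 4-PBA, higher than unloaded (1.79; adjusted p = 0.0203). Mrpl28 fell from 57.97, 54.0 and 44.4 to 23.0, 21.9 and 24.6 (-1.13; adjusted p = 0.0313) and was higher with 4-PBA than without (1.22; adjusted p = 0.0476). Mrpl20 fell from 46.1, 43.7 and 34.8 to 9.06, 17.2 and 17.6 (-1.49; adjusted p = 0.0356) and did not pass in 4-PBA against unloaded (1.31; adjusted p = 0.0964). In that comparison 2 ribosomal genes were higher, where 1.16% of all genes were.

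The 14 tricarboxylic acid cycle genes, which supply NADH and succinate, had 0 past the threshold and a median of -0.32; the smallest p belonged to Fh1 (fumarase) at -0.84 (limma adjusted p = 0.149), Ogdh (a subunit of oxoglutarate dehydrogenase) at -0.59 (adjusted p = 0.260) and Idh3g (of isocitrate dehydrogenase) at -0.45 (adjusted p = 0.270). Among 19 regulators of mitochondrial biogenesis, 18 were tested, 1 rose and 0 fell, with a median of 0.12. Of all genes tested 5.32% rose and 4.9% fell, so these counts set neither the regulators nor the cycle genes apart. The regulator that rose was Tfb1m, a methyltransferase of the mitochondrial ribosomal RNA, at 0.755, 0.868 and 0.633 FPKM in controls and 4.92, 2.58 and 2.16 after unloading (1.22 log2; adjusted p = 0.0382). Ppara, a lipid-sensing receptor, was at 0.536, 0.860 and 1.5 in controls and 3.41, 2.51 and 3.57 after unloading (1.10; adjusted p = 0.0534). Twnk, the helicase of mitochondrial DNA, was at 5.42, 3.67 and 9.19 against 0, 3.50 and 2.32 (-1.45; adjusted p = 0.106). The lists thus differed in their medians, with subunits at -0.82 and mitochondrial ribosomes at -0.60 furthest below the -0.03 of all genes.

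The 13 mRNAs of the mitochondrial genome, which encode the other subunits of complexes I, III, IV and V, lay on the other side: their median difference was 2.697 (log2) after unloading. Of the 13, 11 were higher without overlap, against 18.3% of all genes, and 1 passed the threshold, where 5.32% of all genes rose. So few calls do not set the list apart from all genes. The gene that passed, mt-Nd3, was at 259, 249 and 644 FPKM in controls and 1755, 5419 and 3331 after unloading (3.19; limma adjusted p = 0.0473). The next were mt-Atp6 (3.09; adjusted p = 0.0726) and mt-Nd4l (3.07; adjusted p = 0.111), which did not pass. The median FPKM of the 13 was 3167 to 18837 in controls, 26663 to 49374 after unloading, and 3819, 2445 and 43999 in PBA1, PBA2 and PBA3. Nuclear subunit mRNAs were mostly below, and mitochondrial ones mostly above, their control levels in the unloaded libraries and in PBA3. The control GC3 leaned the same way. In it 62 of 83 nuclear subunit genes were below the control mean, and the mitochondrial median was 18837 FPKM, against 5123 in GC1 and 3167 in GC2.

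The subunit genes are short, and gene length was set beside their differences. The tested ones had a median length of 1569 bases (360 to 8086), against 4108.5 for all tested protein-coding genes, and a GC content of 51.6% against 50.5%. Among genes under 1000 bases, 22 subunit genes had a median unloaded minus control difference of -0.73 and 338 protein-coding genes one of -0.30. From 1000 to 2000 bases the medians were -0.91 (31 subunit genes) and -0.26 (1386 protein-coding genes), from 2000 to 3000 bases -0.69 (13) and -0.19 (1835), and above that -0.69 (17) and -0.01 (7369). In each length class the median of the subunit genes lay below that of the protein-coding genes, whose own median was lower in the shorter classes. Across the subunit genes, Pearson's r of the difference with log2 length was 0.07, a description over genes that share libraries.

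Near-identical copies (at least 95% identity over at least 200 bases) exist elsewhere for 21 of the 86 genes, 20 of them with a pseudogene, and reads counted to a copy are lost to the gene. Such copies held 1.63% to 1.76% of the reads of genes and copies in controls, 1.56% to 2.07% after unloading and 1.39% to 1.87% with 4-PBA. Only Atp5o among the 9 genes that fell has one. The highest shares were those of Ndufa12 (25.6% in controls, 44.6% after unloading) and Atp5l (31.3% and 31.0%), whose levels are uncertain. In addition, 13 of the genes overlap another gene on the same strand and 29 one on the opposite strand; the library kit marks strand, but the strand setting of the counting is not given in the sources used here, so levels of overlapping genes are uncertain.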

How the data were processed

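Per the labels' protocols, poly(A) RNA of 9 kidney samples was made into directional libraries and read from both ends. The submitters' processing notes name CASAVA, cutadapt, HISAT2 and mm10. Their versions, the read counter and its strand setting are not given in the sources used. The authors' deposited values are FPKM per gene and library. Multiplied by gene length and by 1 factor per library, they returned whole reads (100% within 0.01), which gave the depth and the input of limma-voom.

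Because the values are FPKM and not counts, the main test was limma 3.58.1 (R 4.3.3) on log2(FPKM + 1) with an empirical Bayes trend, the 3 groups fitted together with no block, over the 12642 genes that reached an FPKM of 1 in 3 or more libraries. Adjusted p-values are Benjamini-Hochberg over all of them, with a threshold of 0.05. Differences on this scale understate the change of low genes. The code was tested on simulated data. Figures used Python 3.11.15 and matplotlib 3.10.9.

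The members and all lists were chosen with earlier results of these data known, so no list is independent support and none was tested. Named are the genes past the threshold, the extremes and the highest gene of each complex, the isoform sets, the Sdh genes, untested members, and the 3 genes with the smallest p in each related list; others named were chosen after their values were seen. Promoters and motifs came from RefSeq, and coordinates from the deposited table and its match to GENCODE mouse release 21. All 9 libraries were kept, as each pair differed beyond sampling noise. Intervals and floors of 3 reads cover counting error only. Alternatives covered scaling, filters, pseudocounts of 0.1 and 4, fits of 6 samples, limma-voom, a replicate block, library weights, a covariate for the mitochondrial share, protein-coding genes, and libraries left out.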

Additional observations from a re-analysis of the deposited data

How the results depend on the processing

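In unloaded against ground control, 9 subunit genes and 1292 of all genes passed in the main analysis. With scaling by total reads 22 passed (2306 of all genes), with the 6 samples compared alone 32 (1754), with limma-voom on recovered reads 17 (1319) and with library weights 38 (3983). Without both GC3 and PBA3 17 passed (1424), without both GC2 and PBA3, an alternative chosen after seeing the data, 4 (1285), and 0 without a filter (238) or with the mitochondrial share as a covariate (99). Leaving out 1 library gave 0 to 29 (69 to 2360 of all genes). In 4-PBA against unloaded, where 340 of all genes passed, the count was 2 with scaling by total reads (704), 2 with limma-voom (447), 3 with library weights (2045), 7 without both GC3 and PBA3 (1118), 1 without both GC2 and PBA3 (818), and 0 to 8 with 1 library left out (36 to 1320). In 4-PBA against ground control it was 0 under every setting run. The median of unloaded minus control, -0.82, was -1.88 by total reads (all genes -0.75) and -0.39 with the mitochondrial covariate, and -0.89 to -0.65 with 1 library left out. The median of 4-PBA minus unloaded, 0.51, was 1.48 by total reads (all genes 0.69) and 0.091 with that covariate, and 0.22 to 0.76 with 1 library left out. The median of 4-PBA minus control, -0.32, was 0.038 without both GC2 and PBA3 and -0.57 to -0.04 with 1 library left out. The cause of these shifts was not tested. Relative to the median of all genes, 73 to 76 of 83 subunit genes were lower after unloading under each scaling.

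The numbers of the samples were not treated as pairs: deviations of same-numbered libraries correlated at -0.20 to 0.29, not all above 0.1. With the number as a replicate block, 6 subunit genes passed in unloaded against control and 0 in the other comparisons.

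Of all 83 subunit genes, 76 were below 0 in unloaded minus control in the main analysis. With the mitochondrial share as a covariate 52 were. For 4-PBA minus unloaded, 16 were below 0 in the main analysis and 38 with that covariate. Single signs were followed only for part of the named genes and for medians of complexes. Some of these differences of unloaded minus control changed sign. With the mitochondrial share as a covariate these were Atp5a1 (0.53), Atp5b (0.62), Atp5g2 (0.41), Cox7a1 (-0.76), Cox8a (0.56), Ndufa4 (0.10), Ndufs1 (0.66), Sdha (1.10), Sdhc (0.64), Ogdh (0.12), mt-Nd4l (-0.21) and the complex IV median (0.038). By reads outside the mitochondrial genome they were Atp5a1 (0.028), Atp5b (0.16), Atp5g2 (0.020), Ndufs1 (0.16), Sdha (0.14) and Sdhc (0.12). By total reads they were Cox7a1 (-0.50), Cox7a2l (-0.15, and 0.30 for 4-PBA minus unloaded), Sdhd (-0.56) and Uqcrc2 (-0.89). Sdhc was 0.068 with library weights. Without both GC2 and PBA3, Ndufs1 was 0.052, Sdha 0.12 and Sdhc 0.071, and without both GC3 and PBA3, Uqcrc2 was -0.11. With 1 library left out, Atp5b ranged from -0.29 to 0.089, Atp5g2 from -0.52 to 0.054, Ndufs1 from -0.28 to 0.17, Sdha from -0.42 to 0.12, Sdhc from -0.35 to 0.17 and Uqcrc2 from -0.11 to 0.46. No gene past the threshold changed sign. Under 24 other settings, Ndufa1 passed in 18, Ndufv3 in 16, Ndufa11 and Ndufb9 in 15, Ndufa2 and Atp5o in 13, Ndufa9 in 12, and Sdhb and Uqcr10 in 11. Of the related genes that passed, Ndufaf2 passed in 18 of 24, Mrpl20 in 15, mt-Nd3 and Mrpl28 in 13, Sdhaf1 in 10, and Mrps18b in 16 and Tfb1m in 9 of 23. In 4-PBA against unloaded, Mrps18b passed in 13 of 23 and Mrpl28 in 5 of 24. Depth limits Cox8b, Cox6a2, Cox4i2 and Cox6b2, which rest on few reads in several libraries.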

Other observations

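The genes that did not pass the filter were Cox8c, the testis form of Cox8, Cox7b2 and the second Atp5o gene. Cox8c had 34 reads (12.4 FPKM) in HU1 and 0 in the other 8 libraries, and Cox7b2 had 1 read, in GC2. The complex I gene Ndufb6 was at 71.1, 121 and 54.6 FPKM in GC1 to GC3, 43.2, 58.0 and 92.8 in HU1 to HU3, and 82.6, 97.2 and 6.08 in PBA1 to PBA3. PBA3 was thus far below the other 8 libraries for Ndufb6, by 3.68 on the log2 scale against the mean of PBA1 and PBA2, where the median subunit gene lay 0.73 lower. In the other direction, Cox7a1 was 2.00 higher in PBA3 than that mean. Atp5s, which is not a subunit, was at 5.97, 4.93 and 5.24 in controls, 5.75, 5.52 and 2.17 after unloading and 5.13, 5.88 and 7.94 with 4-PBA, with PBA3 the highest of the 9. These genes were chosen after their values were seen, and no test was run on the difference of PBA3.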
